A study of Mus musculus with 3 samples.

Results

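The genes described here are 33 transcripts used as markers of reactive astrocytes, taken from the 19471 genes of a table of normalized read counts by their symbols. They form 3 groups of 11 genes each, which carry published names but are not taken as complete published lists. The pan-reactive genes are Lcn2, Steap4, S1pr3, Timp1, Hspb1, Cxcl10, Cd44, Osmr, Cp, Serpina3n and Aspg. The A1 genes are H2-T23, Serping1, H2-D1, Ggta1, Iigp1, Gbp2, Fbln5, Fkbp5, Psmb8, Srgn and Amigo2. The A2 genes are Clcf1, Tgm1, Ptx3, S100a10, Sphk1, Cd109, Ptgs2, Emp1, Tm4sf1, B3gnt5 and Cd14. Gfap and Vim are not members here and are given with other reactive genes. All 33 had a row in the table, and 31 reached a mean of at least 10. The study behind the table concerns H2BE, a histone variant, in brain cells of different ages. Its 3 libraries analysed here are poly(A) RNA of cultured astrocytes (genotype WT, no treatment given) from the cortex of mouse pups of age P1, taken after 7 days in culture. Replicates 1, 2 and 3 come from pups 5, 6 and 8, so pup, culture and library cannot be told apart. A single group was sequenced, so no stimulated culture stands beside these values, and each comparison below is between genes or between the 3 libraries.

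Reactive astrocytes are astrocytes that have changed their gene expression after injury, infection or disease. Cytokines from microglia and other cells act through receptors on the astrocyte and through NF-kB, STAT and interferon-regulated transcription, and the cell then makes acute-phase proteins, chemokines, antigen-presentation proteins and matrix proteins. The name A1 was given to genes induced in a model of inflammation with lipopolysaccharide, the name A2 to genes induced after ischaemia, and the name pan-reactive to genes induced in both. In culture, astrocytes of newborn rodents are known to respond to serum and to the microglia that grow with them.

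Depth ranged from 9858626 to 25128038 reads per library over all genes. Values are the deposited normalized read counts, which are reads divided by a size factor for each library. A count of 0 reads would allow up to 3 reads, a normalized count of 1.42 to 3.59. The members rested on 24 to 23783 reads over the 3 libraries, and 24 of the 33 on 500 or more. Levels of different genes are compared as RPKM, which divides reads by exon length and library size. Genes of the related lists were chosen for naming by normalized count, and their 3 values serve to compare libraries, not genes. Of the 10 astrocyte markers, 8 lay above the median detected gene, and Gfap stood at 54430.2, 57624 and 44794 in replicates 1, 2 and 3. All 15 microglial markers also lay above it, so each value below is of a mixed culture, in which fewer cells of a type and less RNA per cell cannot be told apart. The pups also differed in sex-linked transcripts, with Xist at 3000.5, 0.47 and 4.78 and the Y-linked gene Ddx3y at 0.81, 688 and 936. Replicate 1 thus had the pattern of a female pup and replicates 2 and 3 that of males.

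**Figure D1:**
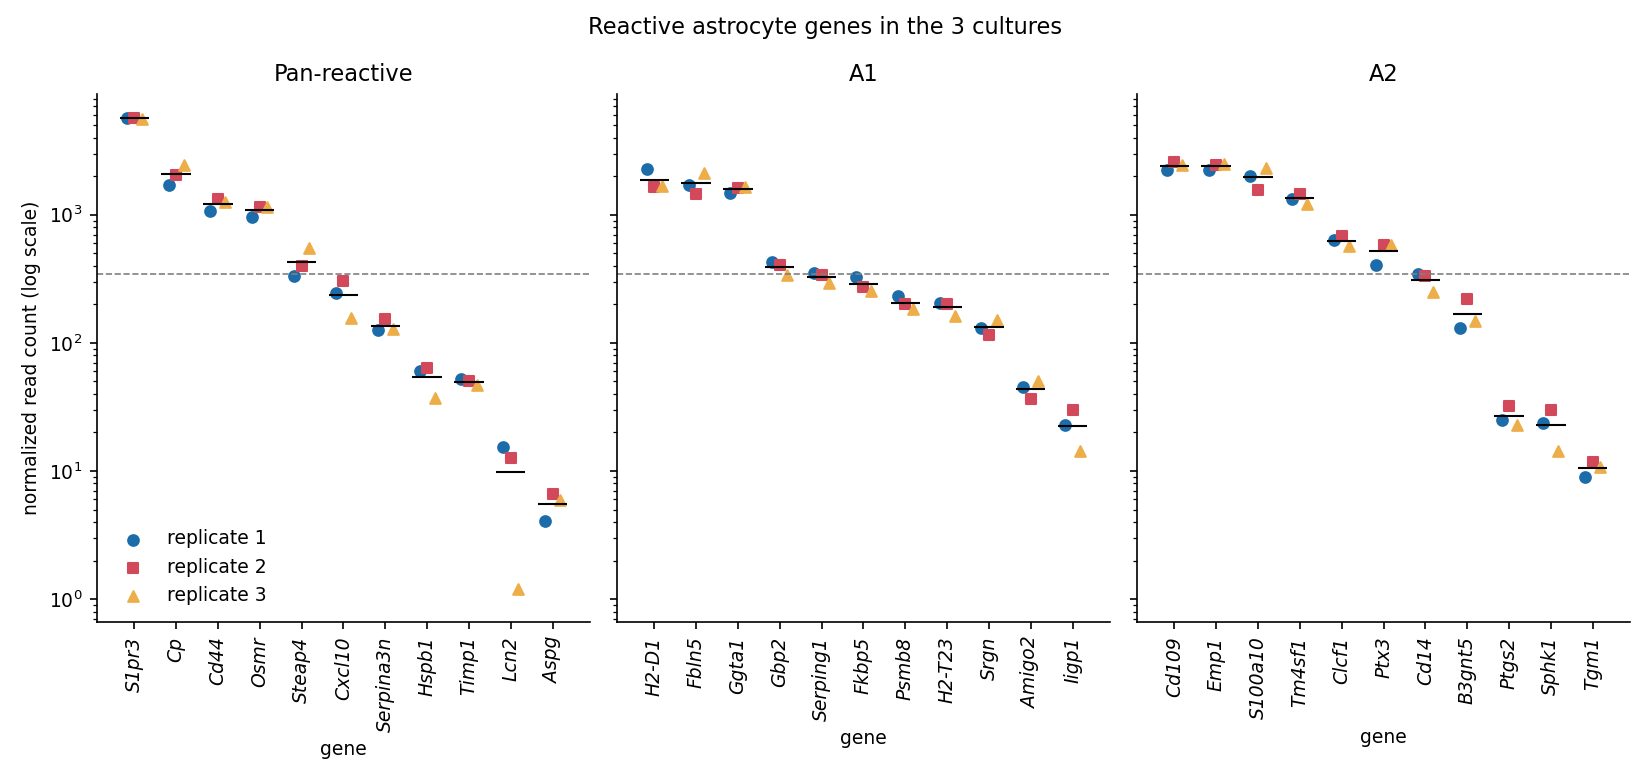
Normalized read counts (log scale) of the 33 genes in the 3 libraries, with a symbol for each replicate, a bar for the mean and a dashed line at the median of all genes averaging at least 10 (347). Means run from 5676 for S1pr3 to 5.55 for Aspg, not corrected for gene length, and only Lcn2 has a library, replicate 3, far from the other two.

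The sequences upstream of 3 members are shown because these genes sit on the best known input pathways of the lists and differed between libraries: Cxcl10 and Gbp2, which interferons induce, were lowest in replicate 3, and Steap4 was highest there. They are the 250 bases before the RefSeq transcription start in GRCm38.p6, at chr5:92348890-92349139 on the minus strand, chr3:142620413-142620662 on the plus strand and chr5:7960222-7960471 on the plus strand, each written 5′ to 3′ in the direction of the gene. Capitals mark matches on either strand to the interferon-type motif GAAANNGAA, the STAT-type motif TTCNNNGAA and the NF-kB motif. Interferon-induced genes did not share 1 order of libraries. Of 20 interferon and antigen-presentation genes outside the members, 9 were lowest in replicate 3 and 6 were highest there. Ifit2, at 991, 1032 and 1350, and Ifit3, at 273, 297 and 348, were among those highest in replicate 3.

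Cxcl10: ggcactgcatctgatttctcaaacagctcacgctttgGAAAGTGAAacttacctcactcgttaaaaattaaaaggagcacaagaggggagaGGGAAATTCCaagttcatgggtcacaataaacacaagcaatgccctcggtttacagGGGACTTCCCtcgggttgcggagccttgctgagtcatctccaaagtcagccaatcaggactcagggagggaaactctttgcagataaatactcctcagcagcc

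Gbp2: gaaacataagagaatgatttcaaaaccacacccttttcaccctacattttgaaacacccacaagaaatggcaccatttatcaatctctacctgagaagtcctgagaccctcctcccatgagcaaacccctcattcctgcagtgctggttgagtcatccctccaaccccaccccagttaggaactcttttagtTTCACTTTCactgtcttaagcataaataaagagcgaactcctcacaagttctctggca

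Steap4: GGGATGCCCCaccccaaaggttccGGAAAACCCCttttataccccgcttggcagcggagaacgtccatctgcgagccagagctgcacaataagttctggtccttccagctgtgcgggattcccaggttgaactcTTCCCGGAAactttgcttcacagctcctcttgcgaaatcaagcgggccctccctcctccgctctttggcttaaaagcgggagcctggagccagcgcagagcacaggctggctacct

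The Cxcl10 stretch held 1 interferon-type match, which begins at -213 from the start, and 2 NF-kB matches, which begin at -159 and -103. In Gbp2 the interferon-type match begins at -58, and in Steap4 the STAT-type match begins at -116, with 2 NF-kB matches at -250 and -226. RefSeq promoters, from 250 bases before to 50 after a start, were listed for 27 of the 33 members, 36 promoters in all, of which 5 belong to Sphk1. The interferon-type motif was in 9 of the 36 (25%) and in 8.56% of all 32851 promoters, in the promoters of Cxcl10, Fbln5, Gbp2, H2-T23, Sphk1, Srgn, Tgm1 and Tm4sf1. The NF-kB motif was in 6 (16.7%, against 4.51% of all), in Cxcl10, H2-D1, Ptx3, Sphk1, Steap4 and Tm4sf1. The STAT-type motif was in 6 (16.7%, against 8.30%), in Emp1, Psmb8, Sphk1, Steap4 and Tgm1. The AP-1 motif TGANTCA was in 7 (19.4%, against 7.81%) and the C/EBP motif TTGCNNAA in 8 (22.2%, against 10.8%). A TATA motif, TATAAA, was in 7 (19.4%, against 13.6%). Motifs could overlap each other, and a match describes letters only. Promoters of Iigp1, Serping1, Cd109, Cd14, Clcf1 and S100a10 were not analysed here.

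Per kilobase, the 33 genes spread from among the most abundant transcripts of the culture to the lowest few percent. The highest were S100a10, an A2 gene, at 138 ± 26.9 RPKM (SD, n = 3), the pan-reactive receptor gene S1pr3 at 108 ± 1.67 and the A1 histocompatibility gene H2-D1 at 61.0 ± 12.1. They stood at the 98.2, 97.3 and 94.7 percentiles of detected genes, those averaging 10 or more. The lowest were Aspg at 0.134 ± 0.0311 RPKM, Tgm1 at 0.282 ± 0.0369, Lcn2 at 0.317 ± 0.246 and Iigp1 at 0.327 ± 0.114. All of these lay far below the intermediate filament genes that define reactive gliosis in tissue: within a library, Gfap per kilobase was 7.78, 10.5 and 5.53 times S100a10 in replicates 1, 2 and 3, and Vim was 10.5, 14.2 and 8.81 times it.

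Each gene was set against the median detected gene of its library with limma, on log2 values per kilobase, and adjusted over 17815 genes. Of the 33 members, 18 (54.5%) lay above the median gene at an adjusted p under 0.05, and 11 (33.3%) lay below it. Over all genes tested the shares were 35.5% above and 56.6% below. That background holds many genes of low count. Among genes averaging 10 or more it was 45.4% above and 44.5% below, and among the 31 members past that mean 18 (58.1%) lay above and 9 (29.0%) below. By list, 6 of 11 pan-reactive genes lay above and 4 below, 5 of 11 A1 genes above and 3 below, and 7 of 11 A2 genes above and 4 below. The medians of the lists were 7.59, 5.57 and 15.1 RPKM in the order pan-reactive, A1 and A2, beside 6.09 for all detected genes. Averaged on the log2 scale instead, the lists stood at 5.41, 6.50 and 7.03 RPKM, with A1 then above pan-reactive. No test between the lists was made.

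**Figure D2:**
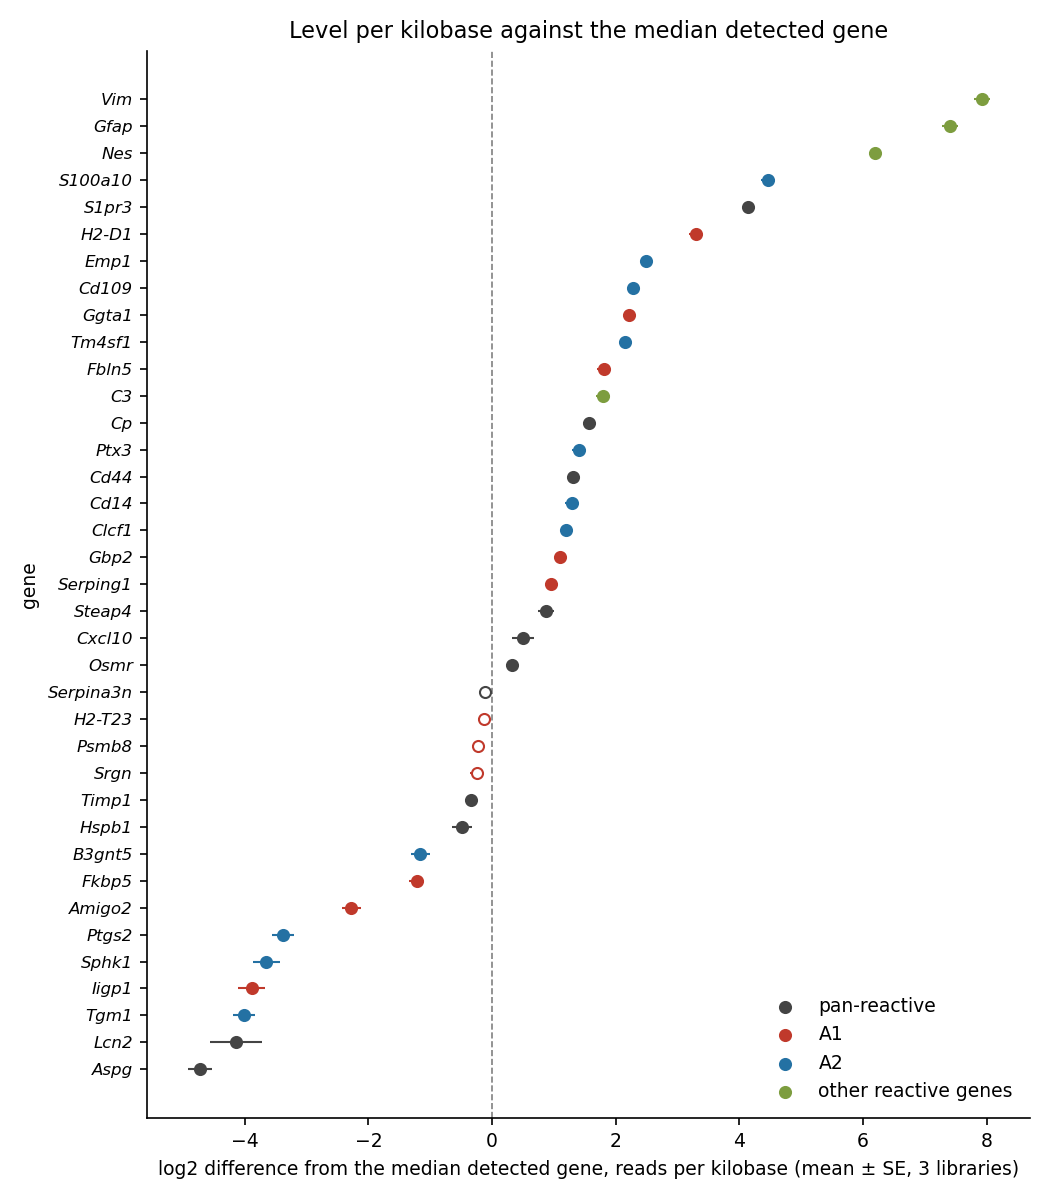
Log2 difference of each gene from the median detected gene (dashed line at 0) in reads per kilobase, as mean ± SE over 3 libraries, coloured by list, with open circles for genes with no call. Vim, Gfap and Nes stand above every member, the members run from 4.47 for S100a10 to -4.73 for Aspg, and Serpina3n, H2-T23, Psmb8 and Srgn have no call.

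Ordered by level per kilobase, few neighbours were apart. Of the 32 neighbouring pairs, 14 kept their order in 3 of 3 libraries, and in 7 the ranges over libraries did not overlap. Those 7 breaks separated S1pr3 from H2-D1, H2-D1 from Emp1, Emp1 from Cd109, Osmr from Serpina3n, Fkbp5 from Amigo2, Amigo2 from Ptgs2 and Tgm1 from Aspg. From Cd109 down to Osmr, and again from Serpina3n down to Fkbp5, each neighbour overlapped the next.

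Among the pan-reactive genes S1pr3 had the highest level per kilobase, followed by Cp at 18.3 RPKM and Cd44 at 15.3, with Osmr at the median of the list. S1pr3, which encodes a receptor for the lipid sphingosine 1-phosphate (chromosome 13 from 51408639 to 51422797, plus strand), had normalized counts of 5735, 5678 and 5614 in replicates 1, 2 and 3. The 3 values nearly coincided: the highest was 1.02 times the lowest, and their reads did not differ by more than sampling (adjusted p = 0.27, chi-square test over libraries). The gene gave 55.7%, 50.8% and 49.3% of the summed counts of its list. Per kilobase S1pr3 was 1.95, 1.65 and 2.08 times S1pr1, another receptor of the same ligand. Sphk1, the A2 gene for a kinase that makes the ligand, had 23.6, 30.2 and 14.3, and S1pr3 per kilobase was 260.1, 201 and 419 times it.

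Cd44, the gene of a hyaluronan receptor, had normalized counts of 1078, 1327 and 1257. Osmr, which encodes the receptor chain for the cytokine oncostatin M, had 953, 1139.7 and 1159. In both genes replicate 1 was the lowest and replicates 2 and 3 were close. Cd44 lay 1.32 ± 0.08 (SE) above the median gene on the log2 scale, and Osmr 0.32 ± 0.09 (adjusted p = 0.0119, limma). The call of Osmr ended without replicate 2 (0.28, adjusted p = 0.0744), with separate variances (0.32, adjusted p = 0.0717) and against the median protein-coding gene (0.19, adjusted p = 0.0756). Il6st, whose product gp130 pairs with the OSMR protein, was far more abundant, and Osmr per kilobase was 0.102, 0.128 and 0.114 of Il6st.

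Lcn2, Timp1 and Serpina3n, pan-reactive genes of secreted proteins, were low or moderate. Lcn2, the gene of the iron-siderophore carrier lipocalin 2 (chromosome 2 from 32384633 to 32388252, minus strand), had normalized counts of 15.5, 12.7 and 1.2, from 19, 27 and 1 reads. Replicate 3 was thus at or under what a count of 0 allows, and replicate 1 was 12.9 times it with a 95% interval of 2.05 to 537 for counting error only. Timp1, the gene of a metalloproteinase inhibitor, had 52.1, 50.5 and 46.6, and the libraries were nearly level. Serpina3n, a gene of an acute-phase protease inhibitor, had 127, 154 and 128, and its level did not pass the test against the median gene (-0.12 ± 0.09, adjusted p = 0.267, limma). Part of its transcripts, 6.9% of their 50-base stretches, also occurs in other genes such as Serpina3f.

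Cxcl10, which encodes an interferon-induced chemokine that draws T cells (chromosome 5 from 92346638 to 92348889, minus strand), had normalized counts of 246, 306 and 157. Replicate 3 was the lowest, and the reads differed between libraries by more than sampling (adjusted p = 7.56e-11, chi-square test), with a highest to lowest ratio of 1.95. Per kilobase it lay 0.50 ± 0.18 above the median gene (adjusted p = 0.0322, limma), in 2 of 3 libraries. That direction reversed with values not divided by length (-0.60, adjusted p = 0.00142). The call ended without replicate 1 (0.43, adjusted p = 0.119), without replicate 2 (0.29, adjusted p = 0.111), with separate variances (adjusted p = 0.233) and against the median protein-coding gene (0.37, adjusted p = 0.0808).

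Of the pan-reactive genes for metal handling and metabolism, Cp was high. Cp encodes ceruloplasmin, a copper-bound ferroxidase that helps iron leave the cell, and had 1704, 2048 and 2449. Steap4, which encodes a metalloreductase of iron and copper (chromosome 5 from 7960457 to 7982213, plus strand), had 330.2, 399 and 545. Both were lowest in replicate 1 and highest in replicate 3, and their reads differed between libraries by more than sampling (adjusted p = 1.01e-27 and 6.8e-12, chi-square test). Steap4 lay 0.87 ± 0.13 above the median gene, a call that ended with separate variances (adjusted p = 0.0589, limma). Aspg, an asparaginase gene, had 4.07, 6.60 and 5.98, from 5, 14 and 5 reads, too few for a statement on its spread.

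Hspb1, the gene of the small heat shock protein HSP27, had normalized counts of 60.2, 64.2 and 37.1, with replicate 3 the lowest. It lay 0.48 below the median gene on the log2 scale (difference -0.48 ± 0.16, adjusted p = 0.0283, limma), and the call ended without replicate 3 (-0.24, adjusted p = 0.063) and with separate variances (adjusted p = 0.201). Its value is uncertain, because 48.8% of the 50-base stretches of its transcripts also occur in the pseudogene Hsp25-ps1.

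Several A1 genes belong to antigen presentation and interferon-regulated immunity. H2-D1, a classical class I histocompatibility gene that presents peptides to cytotoxic T cells (chromosome 17 from 35262730 to 35267499, plus strand), had normalized counts of 2263, 1632 and 1662. Replicate 1 stood above the other two, which were level (adjusted p = 3.68e-42 over the 3 libraries, chi-square test, and 0.598 without replicate 1). Per kilobase it was 1.10, 0.991 and 1.10 times H2-K1, the other classical gene. H2-T23, which encodes the non-classical molecule Qa-1, had 205, 201 and 163, and H2-D1 per kilobase was 12.4, 9.07 and 11.4 times H2-T23. Of the 50-base stretches of H2-D1 and H2-T23, 12.8% and 13.6% occur in other genes, mostly of class I, so counts could be split among them.

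Psmb8, the gene of an immunoproteasome subunit that cuts peptides for class I molecules, had 234, 202 and 183. Its level against the median gene did not pass the test (-0.23 ± 0.10, adjusted p = 0.0693, limma). Gbp2, an interferon-induced guanylate-binding protein gene, had 426, 409 and 339.6, and lay 1.10 ± 0.09 above the median gene per kilobase, with no call when values were not divided by length (0.17, adjusted p = 0.104). Iigp1, the gene of another interferon-induced GTPase, had 22.8, 30.2 and 14.3. Serping1, which encodes the C1 inhibitor of the complement cascade, had 349, 337 and 293. Serping1 lay 0.96 ± 0.08 above the median gene per kilobase and -0.086 from it without division by length, where no call was made. Psmb8, Gbp2, H2-T23 and Serping1 each had their highest value in replicate 1 and their lowest in replicate 3. The reads of H2-T23 and Serping1 did not pass the test between libraries (adjusted p = 0.096 and 0.11, chi-square test). Those of Gbp2 did (adjusted p = 0.0115), but not without replicate 3 (0.473). Those of Psmb8 did (adjusted p = 0.04), but not with median-of-ratios size factors (0.0547), without replicate 1 (0.473) or without replicate 3 (0.0811).

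The other A1 genes have roles in matrix, adhesion, glycans and steroid response. Fbln5, the gene of the elastic-fibre protein fibulin 5, had 1720.3, 1458 and 2121, and replicate 3 was the highest. Ggta1, whose enzyme adds the alpha-galactose epitope to glycans, had 1491, 1620.4 and 1643. Srgn, the gene of the proteoglycan core serglycin of blood-derived and microglial cells, had 130.1, 115 and 152. Its level did not pass the test against the median gene (-0.25 ± 0.11, adjusted p = 0.0579, limma). Amigo2, an adhesion molecule gene, had 45.5, 36.3 and 50.2, and lay -2.28 ± 0.15 from the median gene. Fkbp5, a co-chaperone gene of the glucocorticoid receptor, had 329, 273 and 256, and per kilobase it lay -1.22 ± 0.12 from the median gene.

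Of the A2 genes, 7 lay above the median gene and 4 below it, with no gene between. S100a10, which encodes the annexin A2 partner p11 (chromosome 3 from 93555080 to 93564643, plus strand), had 2011, 1572 and 2326. Replicate 2 was the lowest, and the reads differed between libraries (adjusted p = 4.02e-46, chi-square test). The membrane protein gene Emp1 had 2253, 2465 and 2508, and Tm4sf1, of the L6 family of tetraspan proteins, had 1339, 1461 and 1217. Cd109, the gene of a surface protein that binds TGF-beta, had 2220.5, 2575 and 2461. These 4 genes lay 2.15 to 4.47 above the median gene on the log2 scale, and their highest library was 1.11 to 1.48 times the lowest.

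Secreted and innate immune products of the A2 list came next. Clcf1, the gene of a cytokine that acts through the CNTF receptor, had normalized counts of 633, 683 and 572. Ptx3, the gene of a long pentraxin of innate immunity, had 403, 579.7 and 580.0, and replicate 1 stood below the other two, which did not differ (adjusted p = 0.95 without replicate 1, chi-square test). Cd14, the gene of the lipopolysaccharide co-receptor that microglia and monocytes carry, had 342, 331 and 251. Per kilobase Cd14 was 12.6, 8.52 and 10.2 times Tlr4, its signalling partner. It lay 1.29 ± 0.10 above the median gene per kilobase and -0.18 from it with no call when values were not divided by length. Part of the Clcf1 transcript overlaps the annotated gene AC109138.7 on the same strand, with 6.77% of its 50-base stretches shared. Exons of Psmb8, Sphk1, Tgm1, Cxcl10 and Cp overlap genes annotated on the other strand by 498, 192, 182, 133 and 108 bases, and the strand setting of the counts is unknown here.

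The enzyme genes were the low end of the A2 list. B3gnt5, a glycosyltransferase gene of lacto-series glycolipids, had 132, 219 and 149, with replicate 2 the highest (adjusted p = 8.22e-08, chi-square test). That difference ended without replicate 2 (adjusted p = 0.453). Ptgs2, the gene of the inducible prostaglandin synthase COX-2, had 25.2, 32.1 and 22.7, and Sphk1 rested on 29, 64 and 12 reads. Tgm1, a transglutaminase gene of the cornified epidermis, had 8.95, 11.8 and 10.8, from 11, 25 and 9 reads. Ptgs2, Sphk1 and Tgm1 lay -3.38, -3.65 and -4.02 from the median gene on the log2 scale.

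Reads of 20 of the 31 members averaging at least 10 (64.5%) differed between libraries by more than sampling, against 55.4% of all such genes (chi-square test, adjusted p under 0.05). The count was 6 of 9 pan-reactive genes, 6 of 11 A1 genes and 8 of 11 A2 genes. Without replicate 1 it was 14, without replicate 2 it was 18 and without replicate 3 it was 15. The differences were modest in size: the highest library was 1.5 times the lowest or more for 6 members (19.4%), against 17.9% of all genes averaging at least 10. Those 6 were Cxcl10, Steap4 and Hspb1 of the pan-reactive list, Iigp1 of A1, and Sphk1 and B3gnt5 of A2. Iigp1 and Sphk1 each rested on 12 reads in replicate 3. Without replicate 3 the count fell to 1, which was B3gnt5. The p-values set the spread between these 3 cultures against read sampling alone.

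**Figure D3:**
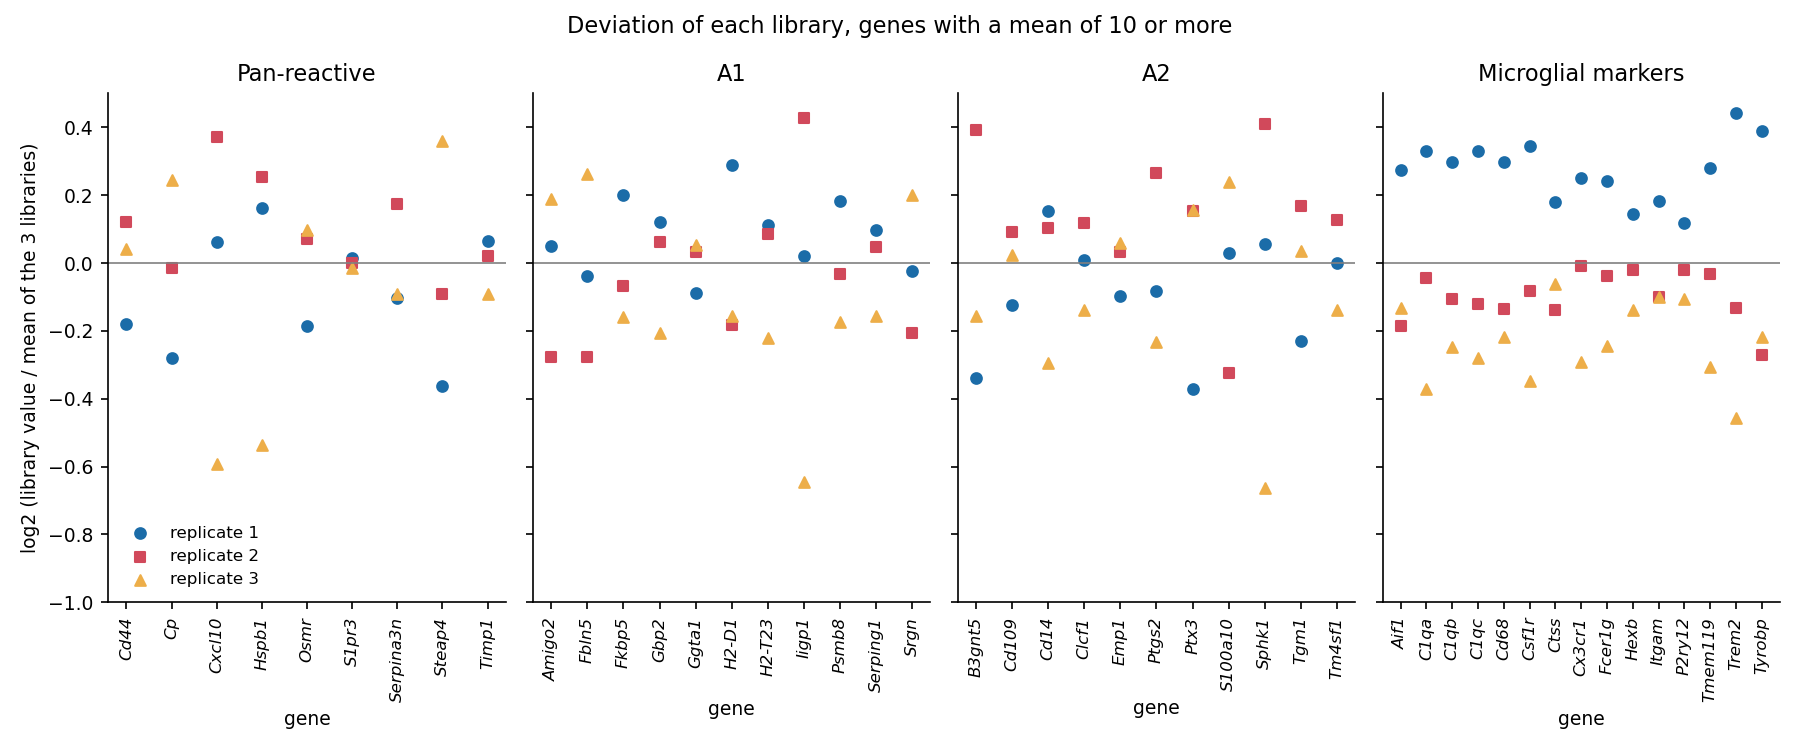
Log2 ratio of each library to the mean of the 3, for the members averaging at least 10 and for 15 microglial markers, with a symbol for each replicate. Replicate 1 is the highest in all 15 microglial markers, whereas among the members the highest library is replicate 1 in 9, replicate 2 in 12 and replicate 3 in 10.

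Replicate 3 was the lowest library for 15 of the 31 members (48.4%), and for 37.5% of all genes averaging at least 10. Microglial marker counts also moved between the libraries: the summed counts of the 15 microglial markers were 42132, 32607 and 29259 in replicates 1, 2 and 3, each of the 15 was highest in replicate 1, Csf1r was at 7005, 5209.7 and 4335, and P2ry12, the marker with the fewest reads, was at 333, 303 and 286. The order of replicate 1 over 2 over 3, looked at after the values were seen, held for 12 of the 15 microglial markers. It held for 8 of the 31 members (25.8%) and for 22.7% of all genes averaging at least 10. The 8 were S1pr3 and Timp1 of the pan-reactive list, H2-T23, Serping1, Gbp2, Fkbp5 and Psmb8 of A1, and Cd14 of A2. Reads of S1pr3, Timp1, H2-T23 and Serping1 did not differ by more than sampling (adjusted p = 0.27, 0.873, 0.096 and 0.11, chi-square test). The part of the microglia, or of the sex of the pup, in these values was not tested. Summed counts of astrocyte markers took another order (110237, 118791 and 97910.4).

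Markers of other cells were checked for the members that such cells are known to express. Of 6 endothelial markers measured, 3 averaged at least 10, and Tek was at 2.44, 1.42 and 1.20, with Kdr at 668, 644 and 757. Fibroblast and meningeal markers summed to 6811, 6706 and 6293, with Islr at 3109, 2265 and 2698 and Lum at 1.63, 3.77 and 1.20. Among 8 mural markers Acta2 stood at 47803, 47905 and 49246, whereas Abcc9 was at 0.81, 0.94 and 0. Ependymal markers, such as Foxj1 at 11671, 8764 and 9465, were lowest in replicate 2 for all 7 genes, with Tmem212 at 8.95, 6.60 and 25.1. Neuronal markers included Stmn2 at 701, 527 and 779.7 and Slc17a7 at 0, 2.36 and 0. Oligodendrocyte-lineage markers included Olig1 at 5984, 6876 and 4827 and Sox10 at 22.8, 13.7 and 8.37, and choroid plexus markers Folr1 at 425, 334 and 386 and Kl at 4.88, 0.94 and 2.39. The choroid plexus gene Ttr set replicate 2 apart, at 31.7, 557 and 13.2, a ratio of 42.3 between the highest and lowest library. No other choroid plexus marker was highest in replicate 2, with Otx2 at 137, 103 and 181 and Sostdc1 at 159, 144 and 130. The astrocyte marker S100b was at 76.5, 83.0 and 46.6. Of the 31 members averaging at least 10, 5 were lowest in replicate 2 (H2-D1, Fbln5, Srgn, Amigo2 and S100a10), beside 27.6% of all such genes. The part of any of these cells in a member was not tested.

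Of 16 ligands that induce reactive states, 4 lay above the median gene and 9 below it, 2 had no call and 1 was not tested. The share below is near the 56.6% of all genes tested. The 4 above it were the complement genes C1qa, C1qb and C1qc at 314, 286 and 164 RPKM and the growth factor gene Csf1 at 84.9. C1qa, C1qb and C1qc are also among the 15 microglial markers, so the 2 lists share these genes. Between libraries C1qa was at 4834, 3728 and 2973, C1qc at 4674, 3423 and 3062 and Csf1 at 5131, 4939 and 5780.5. Ifnb1, the interferon beta gene, was at 0, 0.47 and 1.20. Of the trio given to astrocytes in culture to induce the A1 state, Il1a was at 6.51, 4.25 and 7.17 and Tnf at 61.0, 68.4 and 62.2. Osm, the ligand of the Osmr product, was at 33.3, 25.9 and 26.3.

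All 19 receptor and 19 transducer genes averaged at least 10, where 45.4% of all genes lay above the median gene and 44.5% below it. Of the receptor genes 9 lay above and 6 below. Il6st was at 8583, 8157 and 9343, S1pr1 at 2009.8, 2345 and 1843, and Tnfrsf1a at 1916, 1876 and 1724, with Tlr4 at 87.0, 125 and 78.9. Of the transducer genes 14 lay above. Stat3, the transcription factor of gp130 signalling, had 4395, 4611 and 4026, Nfe2l2 3268, 3472 and 3848, and Jak1 1994, 2116 and 2234, and Cebpb was at 117, 100.01 and 89.7. Socs3, a feedback inhibitor that STAT3 induces, had 886, 905 and 961.

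Interferon and antigen-presentation genes outside the members took both sides of the median gene, with 9 of 20 above and 9 below, close to the shares of all genes averaging at least 10. The class I light chain gene B2m was at 2894, 2966 and 3083, Tapbp at 2519, 2453 and 2467 and H2-K1 at 2344, 1876 and 1722, and the interferon-induced gene Mx1 was at 11.4, 11.3 and 21.5. Psmb8 per kilobase was 2.18, 3.03 and 2.59 times Psmb9 and 0.286, 0.279 and 0.235 of Psmb10, the genes of the other two immunoproteasome subunits. Among the 21 other reactive genes in the table, 12 lay above the median gene and 5 below it, beside 35.5% and 56.6% of all genes tested. Of the 21, 19 averaged at least 10, and among all genes past that mean the shares were 45.4% and 44.5%. Per kilobase Vim, Gfap, Lgals1 and Nes came first, at 1493, 1052, 561 and 449 RPKM. Between libraries Vim was at 82921, 87206 and 80188 and Nes at 32446, 34966 and 34348, and the chemokine gene Cxcl1 at 4.88, 4.72 and 1.20. C3, a complement gene widely read as an A1 marker though not a member here, had 1639, 1135 and 1149 and lay 1.79 above the median gene on the log2 scale.

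**Figure D4:**
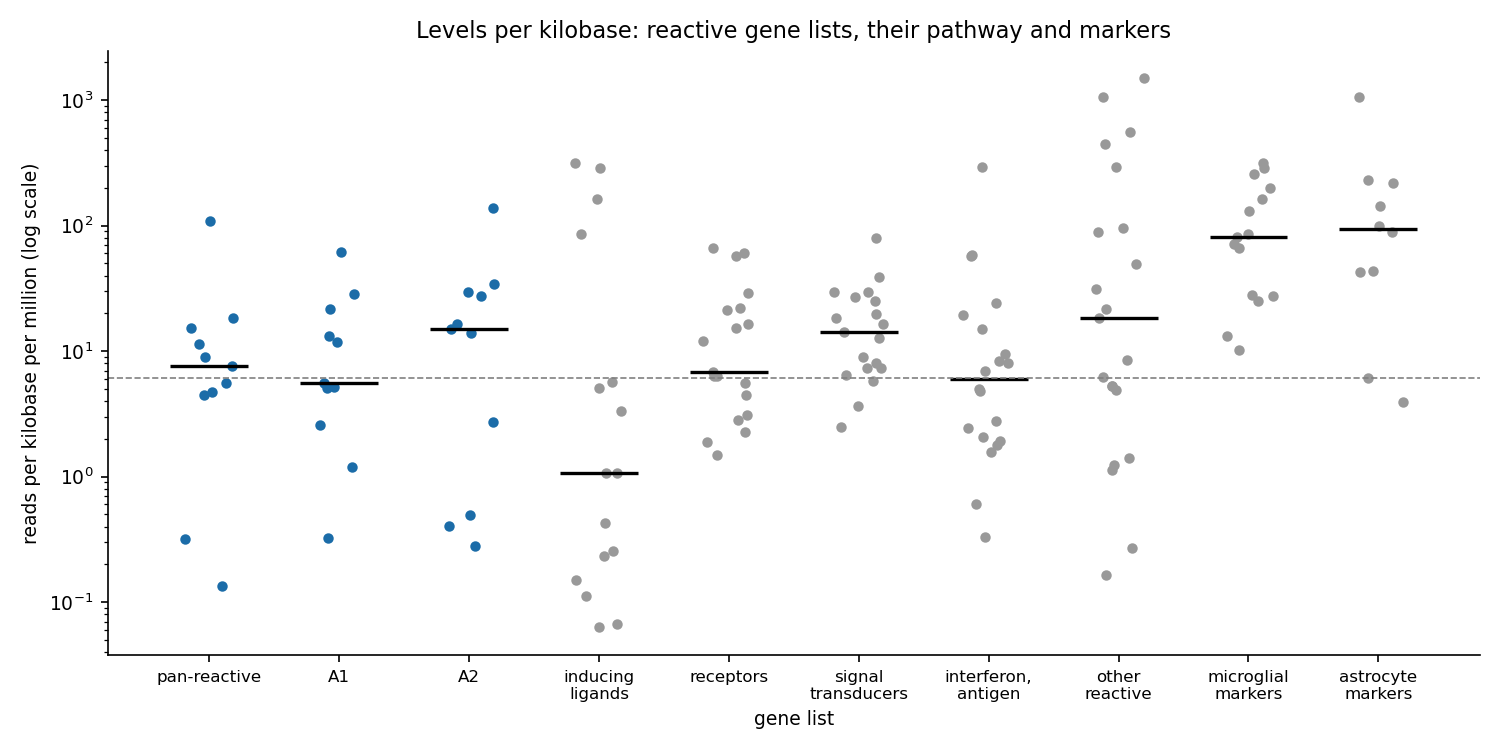
Reads per kilobase, scaled to library size as RPKM (log scale), of each gene of the 3 member lists (blue) and of 7 related lists (grey), as the mean of 3 libraries, with a bar at each list's median and a dashed line at the median detected gene (6.09). The member lists have medians of 7.59, 5.57 and 15.1, the inducing ligands 1.07, and the microglial and astrocyte markers 81.2 and 93.5.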

How the data were processed

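RNA was prepared from the cultures with a column kit and sequenced as stranded poly(A) libraries, per the labels' protocols. The titles give age P1 and the sample descriptions a P0 name, and the titles were followed. The deposited table gives a signal, normalized counts made with DESeq2 on mm10, per the submitters' processing notes. Not given in the sources used here were the aligner, counter, strand setting and gene filter. The deposited mean column was not used.

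Whole reads were recovered for 100% of values (tolerance 0.05 reads). GENCODE vM21, on the same build, gave the summed exon length of 99.5% of genes. Levels were tested against the library's median over genes with a mean of 10 or more by an intercept-only limma 3.58.1 fit with a trended prior on log2(RPKM + 0.1), for genes averaging at least 1. The standard errors borrow a spread from genes of like level. A chi-square test set the reads of each gene against the library totals (mean of at least 10 and 30 reads), which called 7726 of 13941 genes. Both used Benjamini-Hochberg adjustment and were tested on simulated data. Alternatives used edgeR 4.0.16 TMM factors, DESeq2 1.42.0 size factors, R 4.3.3 and Python 3.11.15 with SciPy 1.17.1. Every member is named. From each pathway list the 3 highest and the lowest genes are named, with Gfap, Vim, C3, Stat3 and Socs3, and the highest and lowest of the marker lists. A few others were chosen after their values were seen. Members and lists were chosen with earlier results of these data known. List genes without a row were not analysed here. A result of the transducer list is not reported here.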

Additional observations from a re-analysis of the deposited data

How the results depend on the processing

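No paired analysis was possible because the 3 libraries form a single group. The number of members above the median gene was 14 to 18 and the number below it 10 to 16 over the 10 alternatives. Without division by length the difference reversed for Serping1 (-0.086), Cd14 (-0.18) and Cxcl10 (-0.60), and Cxcl10 was then called below. The number of members whose reads differed between libraries was 14 to 21. The number with a ratio of 1.5 or more was 3 among members averaging at least 100, and 1 to 5 with 1 replicate left out, 1 without replicate 3. On the CPM scale, which is smaller by construction, the list medians were 20.0, 24.3 and 44.2 for pan-reactive, A1 and A2. With only members averaging at least 10, the pan-reactive median was 425 in normalized counts, against 236 with all, and 8.90 RPKM. As means of log2 values the lists stood at 5.41, 6.50 and 7.03 RPKM, and A2 at 298 in normalized counts, against medians of 7.59, 5.57, 15.1 and 521. The A1 median was 5.33 to 5.97 RPKM with 1 replicate left out. Depth limits Lcn2, Aspg and Tgm1, which rest on 24 to 47 reads, and exon lengths take in all annotated transcripts, so a level per kilobase is understated where a short transcript dominates.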
